A study of Danio rerio with 30 samples.

Results

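The comparison set 3 RNA-seq libraries of wild-type zebrafish blood progenitors with earlier haemolytic stress against 3 without it, all kept in DMSO, which makes 6 of the 30 libraries of the study. The members were chosen by their labels: Rps14+/+ genotype, DMSO treatment, and stress given as phenylhydrazine (Phz) or none. Every embryo of the study carried the Tg(itga2b:GFP) transgene, in which the promoter of the platelet integrin gene itga2b drives GFP, and the cells sequenced were the sorted GFP-low fraction. Stressed embryos had been kept in 1 µg/mL Phz from 24 to 48 hours after fertilization and then washed. Stressed and unstressed embryos alike then spent 4 days in DMSO, the solvent control of imiquimod, until day 6. Embryos were pooled by genotype and condition before sorting, and the labels do not say whether each replicate was a separate pool, so p-values measure only the spread between these samples. The other groups used here for reference were heterozygous Rps14+/- embryos and embryos given 20 µM imiquimod, an agonist of the receptor TLR7, in place of DMSO alone.

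Phenylhydrazine oxidises haemoglobin and destroys circulating red cells. In fish as in mammals the loss of red cells raises erythropoietin, which acts through its receptor and the kinase JAK2 on erythroid progenitors. Maturing red cells then turn on haem synthesis, globins, iron uptake and the proteins of the red cell membrane under the control of regulators such as Gata1, Klf1 and Tal1. The question addressed is what remains of such stress in wild-type progenitors 4 days after the compound was removed.

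The 6 libraries are called here by the library numbers in their descriptions. The unstressed libraries were S3, S13 and S14 (replicates 1, 2 and 3) and the Phz libraries S26, S30 and S31 (replicates 1, 2 and 3), and all values below follow this order. Levels are in CPM, the count of a gene scaled by the total count of its library, without TMM adjustment. The edgeR fold changes and the log2 levels used for correlations rest on TMM-adjusted totals. Fold changes are log2, Phz minus unstressed, with the standard error (SE) from edgeR. Total counts ran from 6509676 to 7668440, and 15560 to 18171 genes had at least 1 count. A difference between the groups was not detected in total counts (exact permutation test, two-sided, p = 0.2) or in genes detected (exact permutation p = 0.4), in a design whose smallest possible p is 0.1. All Phz libraries had higher numbers than all unstressed ones, and the labels do not say what the numbers mark, so stress and library number cannot be told apart. RPS14, the gene mutated in the heterozygotes, was at 655, 469.7 and 611 CPM in the unstressed libraries and 546, 428 and 588 CPM after Phz. The sort marker itga2b ran from 0.269 to 24.4 CPM, and TLR7 was at 0 in 5 of the 6 libraries. Among the markers of the sorted cells, myb ran from 406 to 926 CPM and tal1 from 84.0 to 381 CPM. The neutrophil gene lyz was also present in every library, at 6946 to 25624 CPM. Among markers of other cell types, gfap of glia was at 0 throughout, and cdh17 of the kidney tubule and kdrl of the endothelium reached at most 0.154 and 2.0 CPM. In contrast, cpa1, a marker of the exocrine pancreas summed over 2 genes of that symbol, was at 551 to 1482 CPM. The pancreas markers prss1 and ela2l reached at most 5.68 and 0.277 CPM, so the cpa1 level cannot be assigned to pancreas cells. The epidermal marker krt4 was at 19.8 to 211 CPM, and elavl3 of neurons at 24.3 CPM in S3 and at most 4.70 CPM in the others.

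The Phz libraries were not alike. S30 and S31 stood apart from S26 and, together with the heterozygous libraries S32 and S33, from the rest of the study. Immediate-early genes, which any sudden stimulus switches on within minutes, summed to 5523, 9396 and 12435 CPM in S3, S13 and S14. In S26 they summed to 11017 CPM, inside that range, and in S30 and S31 to 1931 and 2767 CPM, below it. Across the study S30 to S33 lay between 1931 and 2767 CPM and the other 26 libraries between 5191 and 13900 CPM. All 4 of these low libraries were Phz with DMSO, 2 of each genotype, and the other 4 such libraries (S26 to S29) held 10392 to 12399 CPM. Over 4714 genes the log2 levels of S30 and S31 had a Pearson r of 0.925 with each other, while S26 had an r of 0.759 and 0.758 with them. S26 was closer to the unstressed S13 (0.855) and S14 (0.851), and S3 was closer to S30 (0.865) than to S13 (0.847) or S14 (0.806). These correlations run across genes, which are not independent replicates, and describe how the libraries lie to each other. No run of neighbouring numbers held both wild-type DMSO groups, so no value within a run exists. For this reason results are given for all 3 Phz libraries, for S26 alone, for S30 and S31, and from a fit with a term for S30 to S33, which both genotypes inform.

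**Figure D1:**
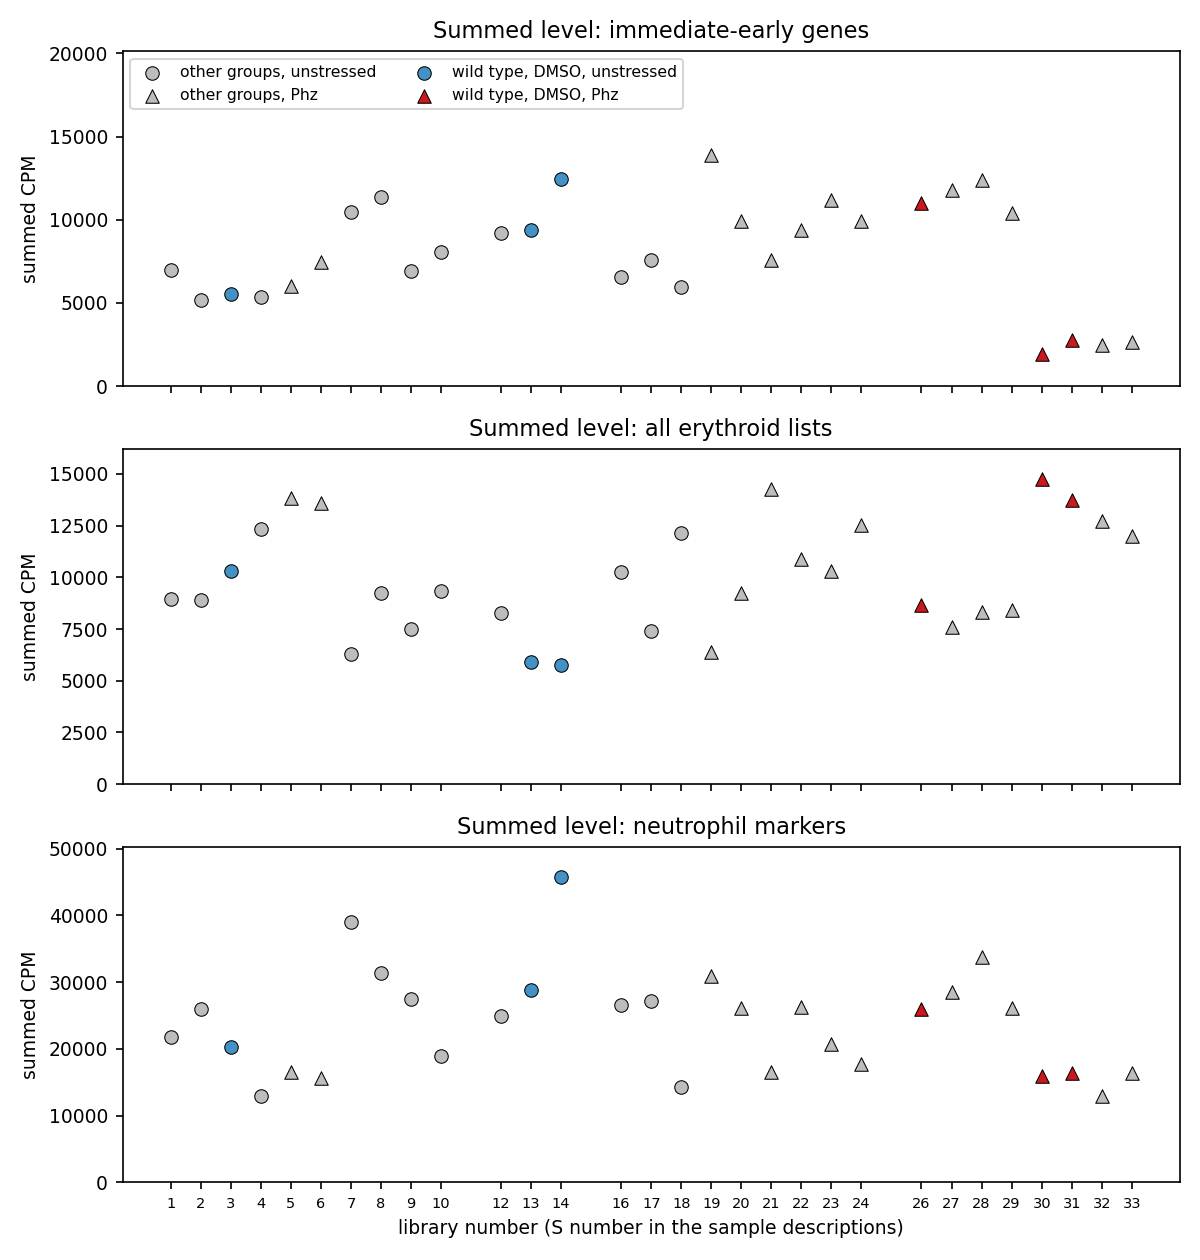
Summed CPM of the immediate-early genes, of all red cell lists and of the neutrophil markers in each of the 30 libraries, plotted by library number; circles are unstressed and triangles Phz libraries, and the 6 wild-type DMSO libraries are coloured. In the upper panel S30 to S33 lie between 1931 and 2767 CPM and the other 26 libraries between 5191 and 13900 CPM; in the middle panel S30 and S31 are the highest of the 6 and S26 lies between S13 and S3.

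No gene passed the threshold in this comparison by edgeR or voom. Of 19930 genes tested by edgeR's quasi-likelihood test, 0 had a Benjamini-Hochberg adjusted p under 0.05 (0%), and the smallest adjusted p was 0.299. At an unadjusted p under 0.05 there were 2138 genes (10.7%), of which 731 were higher (3.67%) and 1407 lower (7.06%) after Phz. limma's voom called 0 genes (1704 at an unadjusted p under 0.05), and DESeq2 called 129, 50 higher (0.251%) and 79 lower (0.396%). In simulated counts with this design, edgeR recovered 6 of 67 genes changed by a log2 of 1, 29 of 67 changed by 2 and 52 of 66 changed by 3. The comparison therefore had little power for changes near a log2 of 1, and missed many of 2. The simulation changed only better-detected genes and held no effect of library number, so recovery of genes near the floor is not known. The values that follow are descriptions of these libraries unless a test is named. The median log2 fold change over all genes was -0.08, and in 906 genes (4.55%) every Phz library lay above every unstressed one, against 1098 genes (5.51%) where every one lay below.

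Red cell genes as a group leaned higher over the 3 Phz libraries, mainly in S30 and S31. Of 101 tested genes on the 6 red cell lists, 69 had a positive fold change, against 44.9% of all genes (54.1% were negative), and their median log2 fold change was 0.45, against -0.08. At an unadjusted p under 0.05, 18 were higher and 4 lower, beside 3.67% and 7.06% of all genes. In 12 the groups did not overlap with Phz higher (11.9%; 4.55% of all genes), and in 3 with Phz lower (2.97%; 5.51% of all genes). Summed over these lists, the unstressed libraries held 10302, 5896 and 5759 CPM and the Phz libraries 8682, 14732 and 13712 CPM, so that S26 lay below the unstressed S3. Among Phz DMSO libraries of both genotypes, S26 to S29 held 7587 to 8682 CPM and S30 to S33 held 11977 to 14732 CPM. The 26 libraries outside S30 to S33 ran from 5759 to 14284 CPM. Stress and library number cannot be told apart in these sums. S30 and S31 were both above all unstressed libraries in 36 of the 101 genes (35.6%; 11.6% of all genes), and both below in 6 (5.94%; 10.4% of all genes). S26 was above them in 22 (21.8%; 21.3% of all genes), below in 15 (23.3% of all genes) and within their range in 64 (55.5% of all genes). The median over the 101 genes was 0.15 with S26 as the lone Phz library (all genes -0.29), 0.44 with S30 and S31 (all genes -0.15), and 0.24 with the term for S30 to S33 (all genes -0.08); medians of other lists are to be read against these levels. In bulk RNA, fewer or more cells of a type and less or more RNA per cell cannot be told apart.

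Haem synthesis genes were higher in 14 of 17 cases (median 0.45). alas2, the erythroid enzyme that starts haem synthesis, was at 17.5, 11.6 and 2.38 CPM in the unstressed libraries and 48, 42.2 and 84.4 CPM after Phz. All 3 Phz libraries were above all unstressed ones, S26 included, and the log2 fold change was 2.48 ± 0.84 (edgeR adjusted p = 0.438). uros, a later enzyme of the pathway, was at 41.9, 19.1 and 65.9 CPM in the unstressed libraries and 61.7, 99.5 and 62.7 CPM after Phz, with S26 and S31 below the unstressed S14. FLVCR1, a haem exporter in mammals, was at 0.614, 5.78 and 6.25 CPM in the unstressed libraries and 29.5, 11.3 and 6.29 CPM after Phz; the groups did not overlap, but S14 and S31 were nearly level. UROD, CPOX, PPOX and FECH, which carry out the last steps, had fold changes of 0.51, 0.60, 1.18 and 0.13 with overlapping groups. The list's median was 0.35 with S26 alone and 0.58 with S30 and S31.

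Globin genes had positive fold changes in 9 of the 14 tested, and 3 had no count in any of the 6 libraries. The reference table gives the symbol HBE1 to several zebrafish beta-like globin genes, which are told apart here by identifier. Of these, ENSDARG00000113599 was at 684, 335 and 63.7 CPM in the unstressed libraries and 416, 1592 and 1698 CPM after Phz. S30 and S31 were above every other library, and S26 lay between S13 and S3, so the fold change was 1.78 ± 0.76 with all 3 Phz libraries and 0.28 with S26 alone. The same order was seen for ENSDARG00000045143, at 126, 66.7 and 53.4 CPM in the unstressed libraries and 95.8, 184 and 211 CPM after Phz. In contrast, ENSDARG00000087390 was at 18.1, 11.3 and 42.6 CPM in the unstressed libraries and 85.4, 106 and 142 CPM after Phz, and there S26 was also above all unstressed libraries, with a fold change of 2.16 ± 1.01. The embryonic alpha globin hbae3 was at 212, 90.5 and 25.2 CPM in the unstressed libraries and 213, 425 and 408 CPM after Phz; S26 exceeded S3 only narrowly. hbae1.1 (0.94) and hbae1.3 (1.41) had positive fold changes and overlapping groups. Of the 3 with no count, 2 were the alpha globins hbaa1 and hbaa2. The median of the list was 0.84 with the 3 genes without counts at a fold change of 0, and 0.99 without them. Setting the gene absent from the Phz group, ENSDARG00000069734, at a floor of 3 counts left it the lowest value. The median of the list was 0.14 with S26 alone and 1.16 with S30 and S31. Summed globin counts were 1336, 603 and 234 CPM without stress and 971, 2761 and 2883 CPM with it, so the unstressed libraries alone spanned more than the gap between S3 and S26.

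Regulators of red cell fate followed S30 and S31 more than S26. Of 19 tested, 15 had positive fold changes (median 0.52), but the median was -0.05 with S26 alone and 0.03 with the term for S30 to S33. S26 was above all unstressed libraries in 6 (31.6%; 21.3% of all genes) and S30 with S31 in 9 (47.4%; 11.6% of all genes). znfl2a was at 279, 106 and 179 CPM in the unstressed libraries and 314, 499 and 456 CPM after Phz, with all Phz libraries above all unstressed ones (1.15 ± 0.34, edgeR adjusted p = 0.438). klf17, a Krüppel-like factor needed for primitive red cells in zebrafish, was at 19.4, 3.5 and 1.04 CPM in the unstressed libraries and 11.08, 60.8 and 45.6 CPM after Phz. It was high in S30 and S31 alone, since S26 lay between S13 and S3, and its fold change was 2.3 ± 0.72. NFE2, a leucine zipper factor of red cells and thrombocytes, was at 93.4, 62.8 and 42.9 CPM in the unstressed libraries and 41.2, 216 and 155 CPM after Phz, lowest in S26 and highest in S30. KLF3, CBFA2T3 and ZFPM1, partners or relatives of the Gata1 and Klf1 machinery, were higher in every Phz library than in any unstressed one, with fold changes of 2.51 ± 1.3, 0.78 ± 0.41 and 0.32 ± 0.37. KLF3 was at a low level, 0.768, 1.75 and 1.94 CPM in the unstressed libraries and 12.8, 4.84 and 8.16 CPM after Phz. For ZFPM1 the gap was narrow, with S14 at 58.2 and S26 at 58.4 CPM. The central factors themselves did not separate the groups. gata1a was at 59.8, 18.8 and 8.19 CPM in the unstressed libraries and 10.6, 72 and 42.3 CPM after Phz, with S26 below S13, and klf1 was at 61, 23.9 and 66.8 CPM in the unstressed libraries and 57, 84.8 and 129 CPM after Phz. TAL1 and LMO2 had fold changes of 0.84 and 0.88, but -0.26 and -0.28 with S26 alone.

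Red cell membrane and cytoskeleton genes were higher in 13 of 20 cases (median 0.67, or 0.54 with the 2 genes absent from 1 group set at the floor of 3 counts). epb41b, of the protein family that ties spectrin and actin to the membrane, was at 178, 91.2 and 92.6 CPM in the unstressed libraries and 229.6, 335 and 232 CPM after Phz. Every Phz library was above every unstressed one, with a fold change of 1.13 ± 0.29 (edgeR adjusted p = 0.335). SLC4A1 (ENSDARG00000012881), the anion exchanger of the red cell membrane, was at 973, 315 and 224 CPM in the unstressed libraries and 603, 1507 and 1393 CPM after Phz. RHAG, the Rh-associated glycoprotein, was at 614, 317 and 334 CPM in the unstressed libraries and 475, 868 and 815 CPM after Phz. In both, S30 and S31 were the highest of the 6 and S26 was below S3. DMTN, the actin-bundling protein dematin, was at 102, 20.7 and 21.3 CPM in the unstressed libraries and 63.8, 142 and 142 CPM after Phz and showed the same order. XK, a membrane protein of the Kell blood group complex, was detected in S3 and S13 and at 0 in S14 and all Phz libraries. With S26 alone the list's median was -0.51, below that of all genes with S26 alone (-0.29), and with S30 and S31 it was 0.73.

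Iron uptake and storage was a red cell list in which S26 lay with S30 and S31. Its median was 0.31 over 17 genes with 12 positive, 0.41 with S26 alone, 0.25 with S30 and S31 and 0.43 with the term for S30 to S33. S26 was above all unstressed libraries in 8 of the 17 (47.1%; 21.3% of all genes) and S30 with S31 in 7 (41.2%; 11.6% of all genes). SLC25A37, mitoferrin, which brings iron into mitochondria, was at 40.4, 46.4 and 32.2 CPM in the unstressed libraries and 71.7, 85.6 and 70.8 CPM after Phz. fth1a, a ferritin heavy chain that stores iron, was at 1068, 675 and 959.9 CPM in the unstressed libraries and 1170.2, 1619 and 1346 CPM after Phz. In both genes all Phz libraries were above all unstressed ones, with fold changes of 0.93 ± 0.39 and 0.59 ± 0.21. PCBP2, an iron chaperone in mammals, was likewise apart, at 172, 148 and 144 against 199, 192 and 188 CPM. tfr1a, the transferrin receptor of red cell precursors in zebrafish, was at 75.6, 28 and 25.8 CPM in the unstressed libraries and 57, 149.6 and 135 CPM after Phz, with S26 below S3. slc11a2, the metal transporter that takes iron out of endosomes, was at 499, 214 and 335 CPM in the unstressed libraries and 478, 666 and 715 CPM after Phz, again with S26 just below S3. GLRX5, which serves iron-sulphur clusters, was at 77.1, 43.3 and 44.2 CPM in the unstressed libraries and 71.2, 110.2 and 104 CPM after Phz. ACO1, an iron-regulated RNA-binding protein and aconitase, went the other way, at 73, 77.2 and 68.9 CPM in the unstressed libraries and 61, 41.3 and 24.5 CPM after Phz, with the groups apart.

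Genes of erythropoietin signalling did not share this direction. Of 14 tested, 6 were positive and the median was -0.28. The receptor EPOR was at 81.7, 31.3 and 37.5 CPM in the unstressed libraries and 72.1, 109 and 70 CPM after Phz, with overlapping groups. KIT, the stem cell factor receptor of early progenitors, was at 154, 32.9 and 102 CPM in the unstressed libraries and 42.6, 64.4 and 43.6 CPM after Phz (fold change -0.96 ± 0.42, edgeR adjusted p = 0.439). stat5a, a factor phosphorylated downstream of the receptor, was at 102, 106 and 100.2 CPM in the unstressed libraries and 60.5, 77.6 and 84.3 CPM after Phz, and SOCS1, an inhibitor of JAK kinases, at 9.83, 10.8 and 15.2 CPM in the unstressed libraries and 2.48, 8.99 and 6.82 CPM after Phz. In both of these the Phz libraries were all below the unstressed ones, S26 the lowest.

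**Figure D2:**
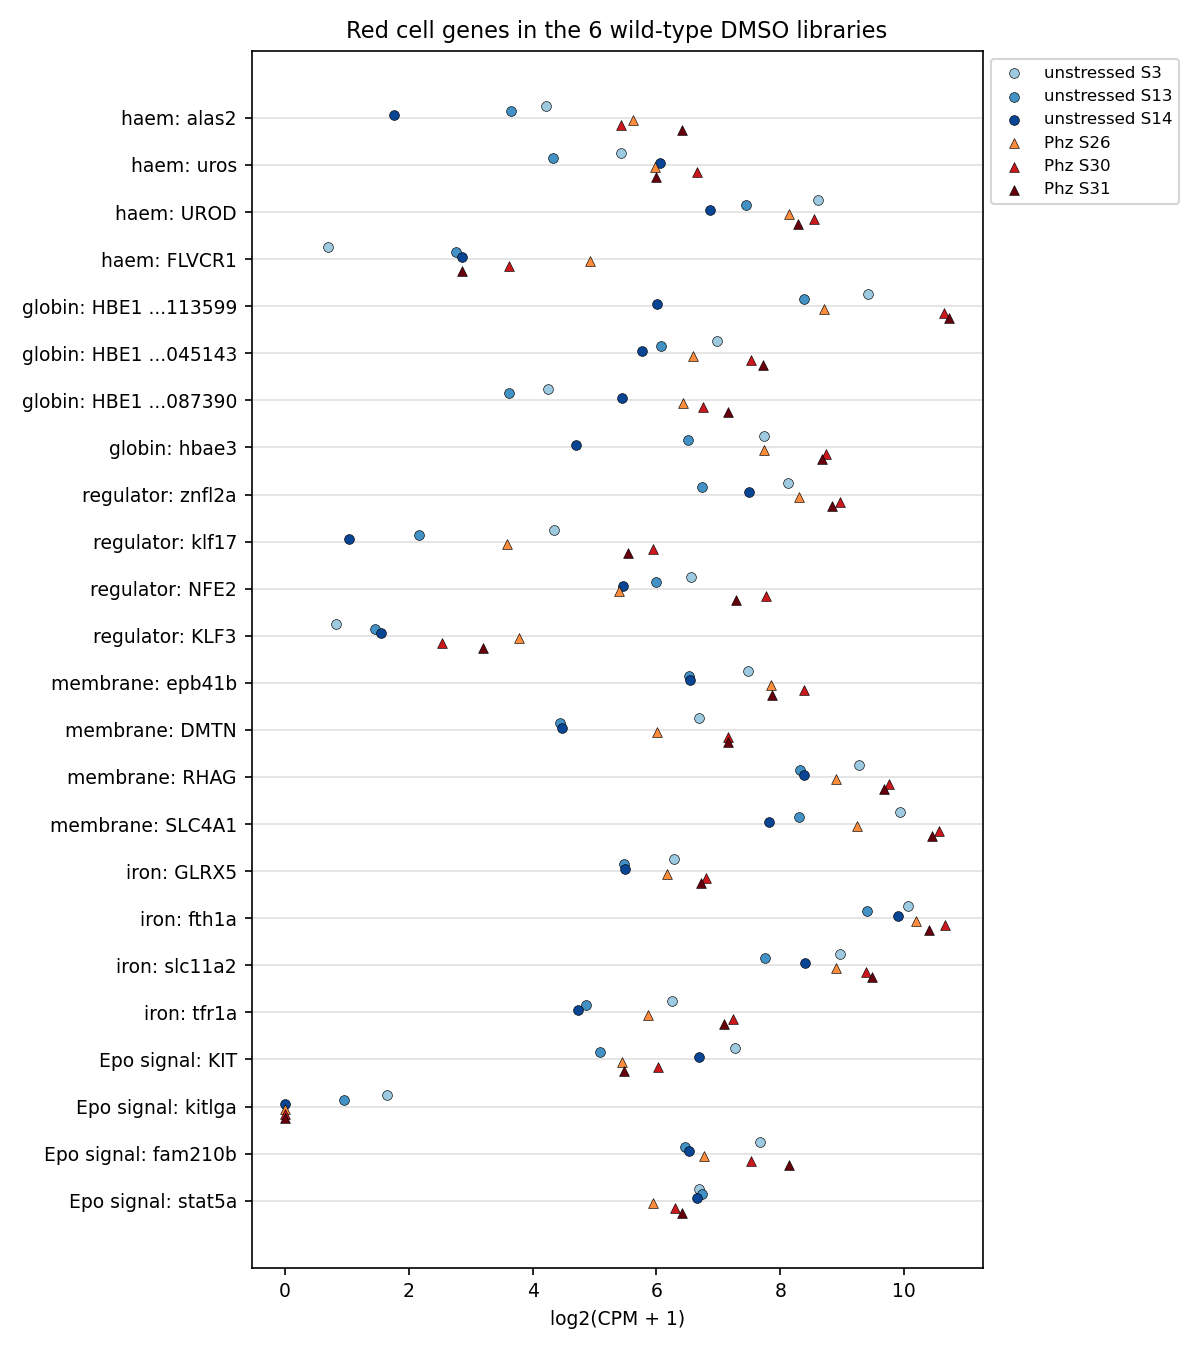
Levels of 4 reported genes of smallest unadjusted p in each red cell list, as log2(CPM + 1), one point per library; blue circles are the unstressed S3, S13 and S14 and triangles the Phz libraries S26, S30 and S31. S30 and S31 are the highest points for most globin and membrane genes, while S26 often falls between S13 or S14 and S3, as for the globin ENSDARG00000113599 at 416 CPM; alas2 and epb41b are among those where all Phz points lie to the right.

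**Figure D3:**
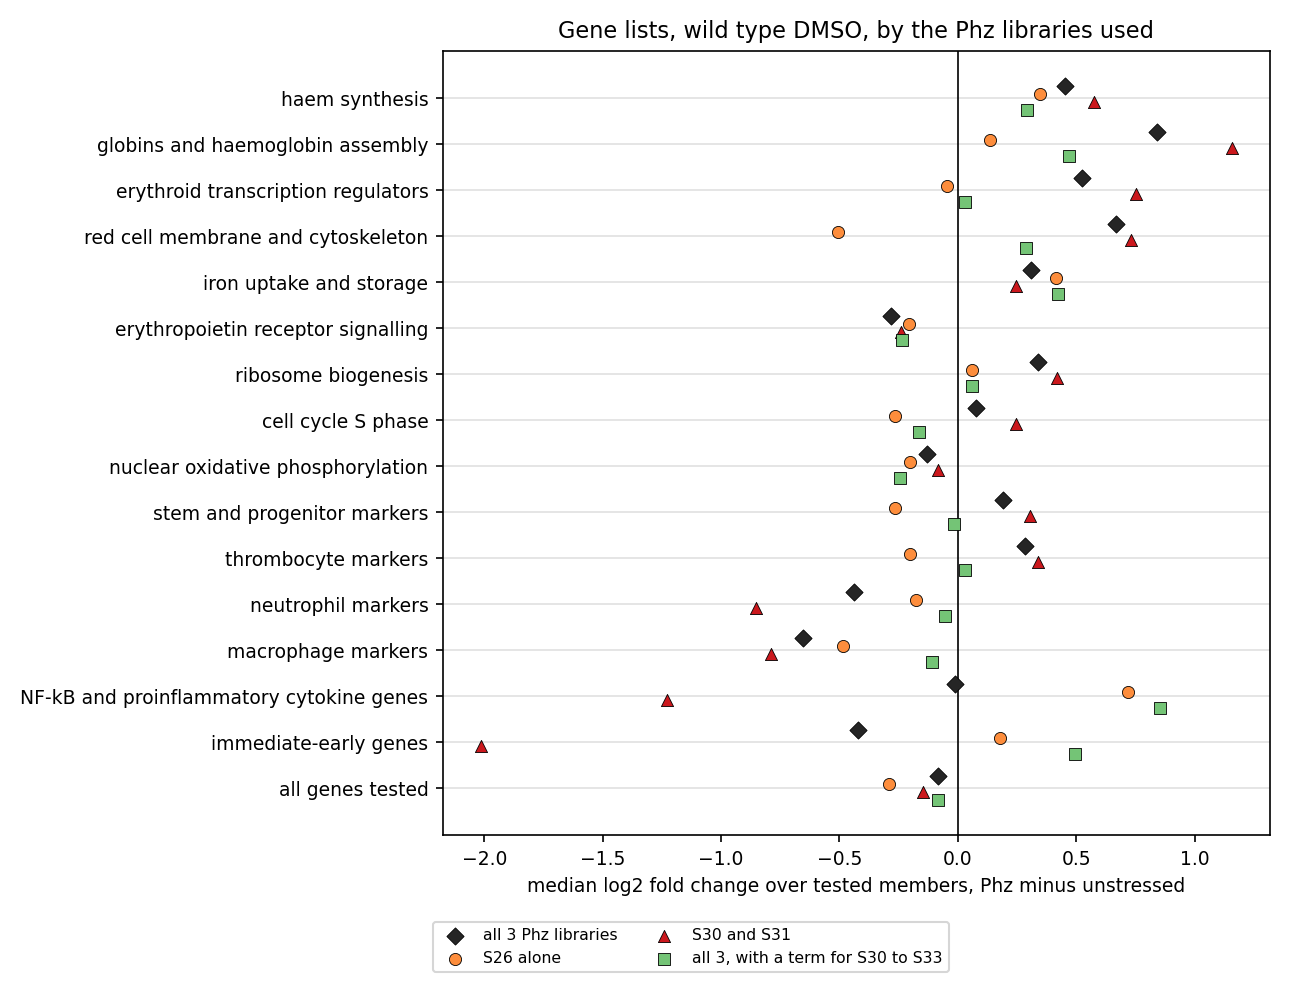
Median log2 fold change of each gene list over its tested members in wild-type DMSO cells, for all 3 Phz libraries, S26 alone, S30 with S31, and all 3 with a term for S30 to S33. The red cell membrane list runs from -0.51 with S26 alone to 0.73 with S30 and S31, the immediate-early genes from 0.18 to -2.02, and iron uptake stays between 0.25 and 0.43.

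Lists tied to the handling of damaged red cells differed from each other. Haem breakdown and iron export genes were positive in 3 of 9 cases, with a median of -0.16, which was -0.53 with S26 alone, -0.23 with S30 and S31 and -0.61 with the term for S30 to S33. Autophagy and mitochondrial clearance genes were positive in 16 of 22 cases, with a median of 0.22, and 0.27, 0.10 and 0.54 in the same order. None of these 22 had an unadjusted p under 0.05 (0 genes, against 10.7% of all genes). Antioxidant genes were positive in 16 of 35 cases (median -0.07), beside 44.9% of all genes. Their medians in the same order were -0.03, -0.08 and 0.21, the last with 25 of 35 positive. Those of all genes were -0.29, -0.15 and -0.08. Among the antioxidant genes, TALDO1 of the pentose phosphate pathway was at 450.1, 484 and 535 CPM in the unstressed libraries and 349, 342 and 337 CPM after Phz. GSS, glutathione synthetase, was at 28.4, 37.9 and 19.5 CPM in the unstressed libraries and 8.09, 13.3 and 14.7 CPM after Phz. Both had all Phz libraries below all unstressed ones. gpx4a, a glutathione peroxidase acting on lipids, was at 3.07, 15.6 and 27.2 CPM in the unstressed libraries and 35.3, 30.7 and 33.2 CPM after Phz, apart in the other direction. Among 35 hypoxia and glycolysis genes (17 positive, median -0.02) DDIT4, an inhibitor of mTOR signalling, was at 5.53, 3.9 and 2.98 CPM in the unstressed libraries and 18.3, 24.9 and 11.5 CPM after Phz, with a fold change of 2.13 ± 0.61 (edgeR adjusted p = 0.438) and 2.18 with S26 alone.

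Ribosome biogenesis genes leaned upwards and nuclear genes of the respiratory chain slightly downwards. Of 67 ribosome biogenesis genes, 59 were positive (median 0.34) and 14 were higher (20.9%; 3.67% of all genes) and 0 lower (7.06% of all genes) at an unadjusted p under 0.05. WDR12, of the complex that matures the large subunit RNA, was at 92.2, 62.9 and 49.6 CPM in the unstressed libraries and 118, 138 and 114 CPM after Phz, apart from the unstressed range in all 3 Phz libraries (0.85 ± 0.25), and so were PES1 and BOP1 of the same complex (0.56 and 0.63). The direction rested mainly on S30 and S31, both above all unstressed libraries in 33 of the 67 (49.3%; 11.6% of all genes) and both below in 0 (10.4% of all genes). S26 was above in 17 (25.4%; 21.3% of all genes) and below in 17 (25.4%; 23.3% of all genes). The median with S26 alone was 0.06, against -0.29 for all genes. Of 60 respiratory chain genes, 18 were positive (median -0.13), and in 16 the Phz libraries were all below the unstressed ones (26.7%; 5.51% of all genes). S26 was below all unstressed libraries in 35 (58.3%; 23.3% of all genes) and S30 with S31 in 20 (33.3%; 10.4% of all genes). At an unadjusted p under 0.05, 1.67% were higher and 8.33% lower, beside 3.67% and 7.06% of all genes. The median was -0.20 with S26 alone, -0.08 with S30 and S31 and -0.24 with the term for S30 to S33. Those of all genes were -0.29, -0.15 and -0.08, so the downward lean depended on the measure. The 16 genes differed in size: COX7C, a subunit of cytochrome oxidase, was at 87.7, 77.7 and 72.9 CPM in the unstressed libraries and 71.7, 15.2 and 27.4 CPM after Phz, far lower in S30 and S31 than in S26. NDUFV1 of complex I was at 166, 165 and 172 CPM in the unstressed libraries and 155, 164 and 153 CPM after Phz, where the groups were nearly level. SDHA, of succinate dehydrogenase, was apart in the opposite direction, at 216, 282 and 267 CPM in the unstressed libraries and 372, 345 and 371 CPM after Phz. S phase genes had a median of 0.08 (28 of 41 positive). It was -0.26 with S26 alone (13 positive), 0.25 with S30 and S31 and -0.16 with the term for S30 to S33. S26 was below all unstressed libraries in 18 of the 41 (43.9%; 23.3% of all genes) and above in 7 (17.1%; 21.3% of all genes). S30 with S31 were above in 11 (26.8%; 11.6% of all genes) and below in 0 (10.4% of all genes). LIG1, the replicative DNA ligase, was at 49.8, 90.2 and 34.4 CPM in the unstressed libraries and 90.8, 109.8 and 106 CPM after Phz. CCNE1, cyclin E, was at 17.1, 31.9 and 0.298 CPM in the unstressed libraries and 44.3, 42.2 and 55.1 CPM after Phz. In both genes S26 was above all unstressed libraries, unlike most of the list. For mitosis genes the median was 0.09.

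Progenitor and thrombocyte genes were more often higher than lower with all 3 Phz libraries, while their medians with S26 alone were near that of all genes (-0.29). Of 34 stem and progenitor genes 22 were positive (median 0.19), beside 44.9% of all genes, with a median of -0.27 with S26 alone, 0.31 with S30 and S31 and -0.02 with the term for S30 to S33. Of 25 thrombocyte genes 18 were positive (median 0.28), with medians of -0.20, 0.34 and 0.03 in the same order. At an unadjusted p under 0.05, 2 stem and progenitor genes were higher and 3 lower (5.88% and 8.82%), and 3 thrombocyte genes higher and 2 lower (12% and 8%), beside 3.67% and 7.06% of all genes. IKZF1, the lymphoid and progenitor regulator Ikaros, was at 253, 187 and 249 CPM in the unstressed libraries and 383, 416 and 467 CPM after Phz, higher in every Phz library (0.85 ± 0.23, edgeR adjusted p = 0.375). RUNX1, the regulator that founds definitive blood stem cells, was at 14.1, 27.3 and 32.9 CPM in the unstressed libraries and 11.6, 11.6 and 9.9 CPM after Phz, lower in every Phz library (-1.19 ± 0.44). S26, S30 and S31 were close to each other in both genes. Among the thrombocyte genes f13a1b, a chain of coagulation factor XIII, was at 427, 525 and 457 CPM in the unstressed libraries and 175, 310.0 and 295 CPM after Phz, and TBXAS1, thromboxane synthase, at 15.1, 18.7 and 14.7 CPM in the unstressed libraries and 36, 53 and 32.1 CPM after Phz. Both separated the groups, in opposite directions. tubb1, the tubulin of platelets, was high in S30 and S31 alone, at 21, 9.01 and 21.1 against 17.5, 48.5 and 58.2 CPM.

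Myeloid genes were lower after Phz in S30 and S31, while S26 was near the level of all genes for the neutrophil markers. Neutrophil markers were positive in 4 of 27 cases (median -0.44) and macrophage markers in 9 of 36 (median -0.65). Summed neutrophil markers were 20235, 28870 and 45692 CPM in the unstressed libraries and 25936, 15910 and 16396 CPM after Phz, so S26 lay inside the unstressed range. Among Phz DMSO libraries of both genotypes, S26 to S29 held 25936 to 33719 CPM and S30 to S33 held 12888 to 16448 CPM. The 26 libraries outside S30 to S33 ran from 12951 to 45692 CPM. S30 and S31 were both below all unstressed libraries in 16 of the 27 (59.3%; 10.4% of all genes) and both above in 0 (11.6% of all genes). S26 was below in 4 (14.8%; 23.3% of all genes) and above in 5 (18.5%; 21.3% of all genes), and the median with S26 alone was -0.18, against -0.29 for all genes. Among the 36 macrophage markers S30 and S31 were both below in 8 (22.2%; 10.4% of all genes) and both above in 1 (2.78%; 11.6% of all genes). S26 was below in 8 (22.2%; 23.3% of all genes) and above in 3 (8.33%; 21.3% of all genes). The macrophage median was -0.49 with S26 alone and -0.79 with S30 and S31. ABCB9, a lysosomal peptide transporter, was at 844, 651 and 1035 CPM in the unstressed libraries and 532, 537 and 603 CPM after Phz and the granulocyte colony-stimulating factor receptor CSF3R at 224, 147 and 171 CPM in the unstressed libraries and 137, 93.7 and 125 CPM after Phz, each with all Phz libraries below. Among macrophage markers, grna, a granulin precursor, was at 92.5, 161 and 97.1 CPM in the unstressed libraries and 70.7, 55.7 and 32.5 CPM after Phz and spi1a, a Pu.1 factor of myeloid cells, at 275, 309 and 267 CPM in the unstressed libraries and 206, 173 and 208 CPM after Phz, likewise apart. With the term for S30 to S33 the medians were -0.06 and -0.11. The part of this lower myeloid signal in the higher share of red cell genes was not tested.

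The immediate-early list split the Phz libraries. Its median was -0.42 over 33 genes, 0.18 with S26 alone and -2.02 with S30 and S31. ier2a was at 423, 342 and 597 CPM in the unstressed libraries and 247, 88.3 and 156 CPM after Phz and FOS at 334, 261 and 296 CPM in the unstressed libraries and 227, 54.5 and 85.1 CPM after Phz, with all Phz libraries below the unstressed ones, although S26 was nearer to the unstressed range than to S30. JUN and il1b, chosen after their values were seen, show a wide split. JUN was at 101, 433 and 950.1 CPM in the unstressed libraries and 900.4, 7.05 and 28.6 CPM after Phz, and the cytokine il1b at 81, 496 and 964 CPM in the unstressed libraries and 1292, 5.39 and 3.34 CPM after Phz. NF-kB and cytokine genes had a median of -0.01, made of 0.72 with S26 alone and -1.23 with S30 and S31. Their sum was 1812, 4524 and 9509 CPM without stress and 9628, 1040 and 1365 CPM with it. In the fit with a term for S30 to S33, that term alone passed the threshold in 535 genes by edgeR, 79 higher (0.396%) and 456 lower (2.29%). Among them were 22 of the 33 immediate-early and 13 of the 35 NF-kB genes, 6 of the 27 neutrophil and 6 of the 36 macrophage markers, all lower. Of the 101 red cell genes, 4 were higher and 3 lower in that term. NFE2, LMO2 and gata1a were among the higher, and with the term their Phz fold changes were -0.15, -0.15 and -1.16. S30 to S33 were set apart after their immediate-early genes were seen to be low. The count for that list therefore follows from the choice, and the other counts are descriptions. Handling, sorting time and sequencing of these libraries are not given in the labels, and their part in the results was not tested.

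Markers of cell types outside the sort were present in all 6 libraries, and some were high in single ones. Epidermal markers summed to 3380, 3630 and 3944 CPM without stress and 2957, 2251 and 2749 CPM with it, and 11 of 25 were positive (median -0.39). All Phz sums lay below all unstressed ones, but the sums did not follow the middle of the list. The median log2 deviation of its members from the unstressed mean was 0.08, 1.29 and -0.81 in S3, S13 and S14. After Phz it was -0.05, 0.18 and -0.58, inside that range, and S14 had the highest sum with the lowest median. Liver and exocrine pancreas markers summed to 957 to 1605 CPM without stress and 836 to 1548 CPM with it. These sums are not a measure of pancreas cells, since prss1 and ela2l reached at most 5.68 and 0.277 CPM. The liver apolipoproteins apoa1b and apoa2, chosen after their values were seen, were at 19.8, 16.7 and 0.149 against 403, 2.35 and 0.268 CPM and at 1.54, 2.96 and 4.32 against 102, 0.691 and 0.134 CPM, high in S26 alone. tfa, which encodes transferrin and is on the liver list, was instead higher in every Phz library, at 62.1, 83.8 and 68.9 CPM in the unstressed libraries and 142, 154 and 223 CPM after Phz (1.26 ± 0.33). Skeletal muscle markers summed to 63.9, 37.4 and 17.4 CPM without stress and 44.3, 96.4 and 110.4 CPM with it, with a positive fold change in 14 of 17. Neural and retinal markers summed to 292.0 CPM in S3 and to 17.8 to 41.3 CPM in the other 5 libraries. Endothelial markers summed to 90.2 to 118 CPM without stress and to 68.6 to 113 CPM with it. Of the 20, 5 were positive and the median was -1.32, or -1.09 with genes absent from 1 group at their bound and genes without counts left out. At an unadjusted p under 0.05, 0 of the 20 were higher and 7 lower (35%, beside 7.06% of all genes). Of the 20, 1 had no count in the 6 libraries and 4 had none in 1 group. The endothelial markers kdrl and cdh5 reached at most 2.0 and 1.38 CPM, so such fold changes rest on few reads. The part of these other cell types in the results was not tested.

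The genes of smallest p among those with groups apart were chosen for that separation, so it is a description and not a finding. Of 15 higher genes, clk4a, a kinase of splicing factors, was at 127, 159 and 168 CPM in the unstressed libraries and 324, 314 and 254 CPM after Phz, with a fold change of 0.96 ± 0.22 (edgeR adjusted p = 0.299, DESeq2 adjusted p = 0.012). ZNF395, a zinc finger protein, was at 44.4, 48.1 and 32.7 CPM in the unstressed libraries and 103, 123 and 114 CPM after Phz (1.43 ± 0.33). TMEM205, a membrane protein, was at 15.5, 14 and 6.7 CPM in the unstressed libraries and 67.5, 32.5 and 75.7 CPM after Phz (2.28 ± 0.54). The nuclear ATPase NVL, which acts in large-subunit maturation, was at 47.6, 60.6 and 31.6 CPM in the unstressed libraries and 94.4, 147 and 139 CPM after Phz, and SATB1, a chromatin organiser, at 4.45, 6.32 and 2.08 CPM in the unstressed libraries and 9.91, 23.8 and 44.6 CPM after Phz. CEP55, of the midbody in dividing cells, was at 6.14, 5.24 and 5.66 CPM in the unstressed libraries and 36.6, 12.2 and 19.1 CPM after Phz, highest in S26. The other 9 were SPOPL, plagx, ZPR1, atp1b3b, cdv3, epb41b, hif1al2, BRD8 and IKZF1. SPOPL, ZNF395, BRD8, ADD3 and RHBDF1 share their symbols with other genes, and reads of near-identical copies may be split between them.

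Of the 15 lower genes, ier2a had the smallest p (-1.49 ± 0.35, edgeR adjusted p = 0.299). ADD3, an adducin that joins spectrin to actin, was at 154, 113 and 95.6 CPM in the unstressed libraries and 54.2, 39 and 39.3 CPM after Phz (-1.45 ± 0.35). ZBTB37, a zinc finger protein, was at 16.9, 23.8 and 53.1 CPM in the unstressed libraries and 3.65, 8.02 and 5.35 CPM after Phz (-2.51 ± 0.61). ENTPD1, the ectonucleotidase CD39, was at 159, 255 and 258 CPM in the unstressed libraries and 128, 79.9 and 107 CPM after Phz. PDIA3, a disulphide isomerase of the endoplasmic reticulum, was at 512, 667 and 496 CPM in the unstressed libraries and 306, 416 and 350.4 CPM after Phz, and CEP170 of the centrosome at 51.6, 66 and 65.8 CPM in the unstressed libraries and 23.2, 25.2 and 29.3 CPM after Phz. The others were RHBDF1, abcc3, CLIP1, kctd12.2, BCKDK, NUDT9, PRCP, f13a1b and PLCB3. DESeq2 called 23 of 40 genes followed across settings, beside 0.251% of all genes higher and 0.396% lower. Most of the 40 were chosen for a small edgeR p in these same counts, so this count largely follows from the choice. The 5 DESeq2 calls of smallest p in each direction among well-detected genes had DESeq2 adjusted p between 0.0066 and 0.033. They were TMEM205, clk4a, SATB1, ZNF395 and CEP55 (higher) and ZBTB37, ADD3, ier2a, RHBDF1 and CLIP1 (lower).

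**Figure D4:**
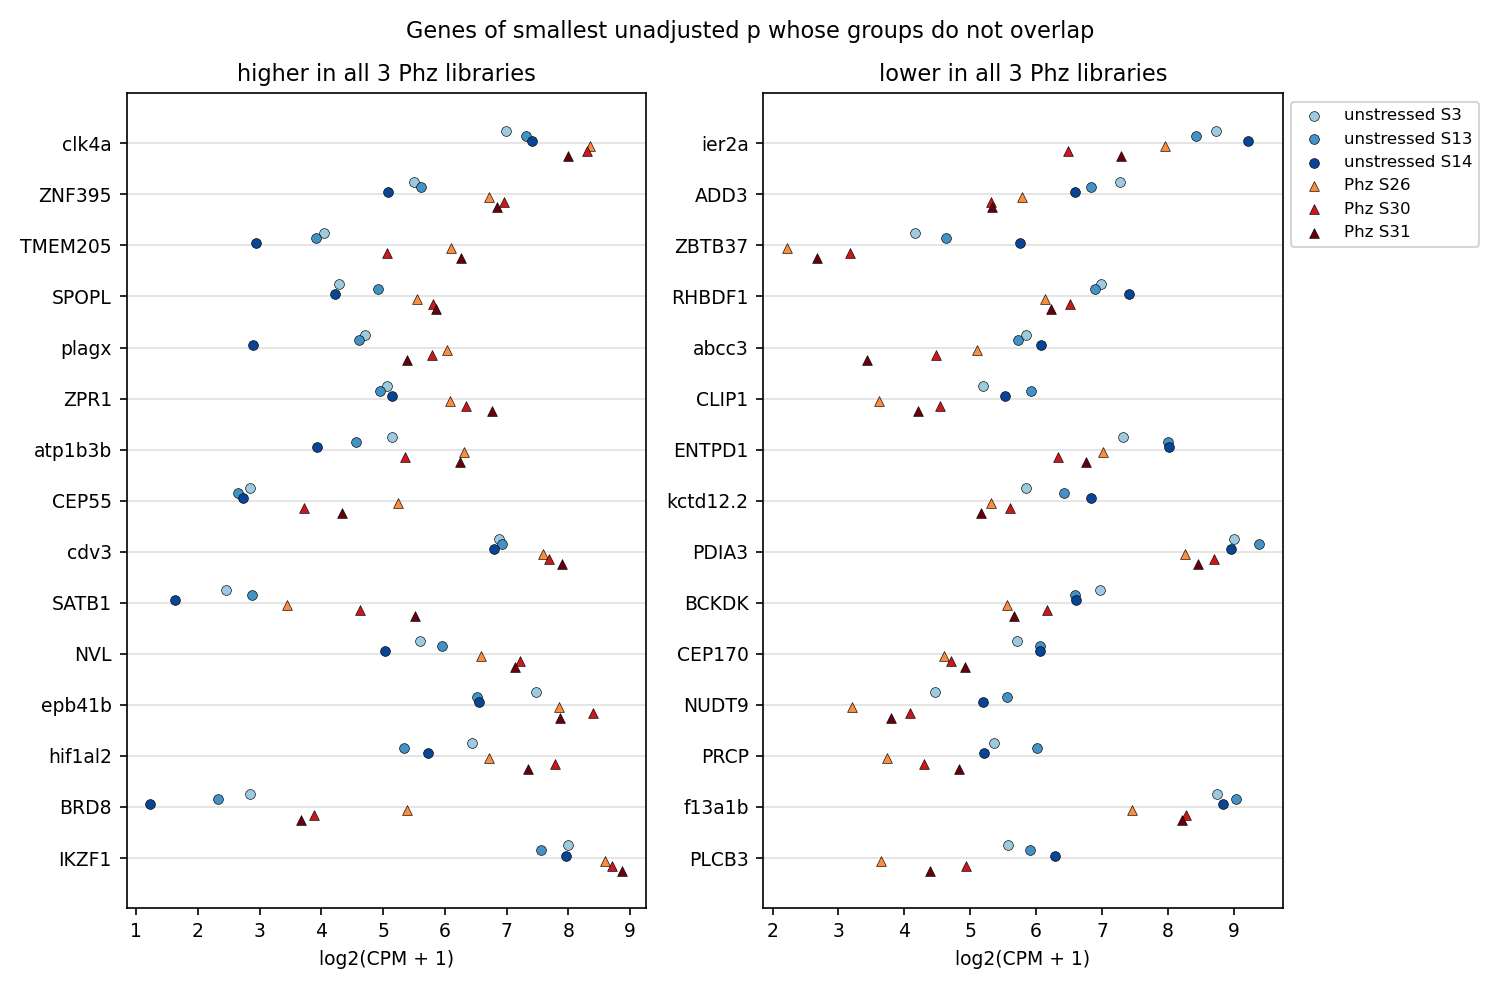
Levels of the 15 higher and 15 lower genes of smallest unadjusted p whose groups do not overlap, as log2(CPM + 1), one point per library; circles are unstressed and triangles Phz libraries. The separation follows from how the genes were chosen; the 3 Phz points lie close for ZNF395 (103 to 123 CPM) and spread for CEP55 (12.2 to 36.6 CPM).

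The other 3 comparisons of Phz with no stress use other libraries, and the 30 genes can be read there without the choice. In heterozygous DMSO cells, 11 of the 15 higher genes had a positive fold change (46.2% of all genes), with a median of 0.12. None of these 11 had an unadjusted p under 0.05 (0 genes, against 2.42% of all genes). Of the 15 lower genes 9 were negative there, 2 of them at an unadjusted p under 0.05 (4.57% of all genes): ier2a (-0.68) and ZBTB37 (-1.33). The heterozygous Phz group includes S32 and S33. For ier2a the median was 290.5 CPM in S26 to S29 and 157 CPM in S30 to S33, so stress and library number cannot be told apart. For ZBTB37 the term for S30 to S33 was 0.21 ± 0.55, and there too stress and library number cannot be told apart. Under imiquimod in wild-type cells 9 of the higher and 10 of the lower genes kept their sign (45.9% of all genes were positive). There ZPR1 was higher (0.66; 3.02% of all genes) and SPOPL lower (-0.73; 3.4% of all genes) at an unadjusted p under 0.05. In heterozygous imiquimod cells 10 and 7 kept their sign (46.9% of all genes were positive). ENTPD1 (-0.77) and PRCP (-0.76) were lower again at an unadjusted p under 0.05 (2.19% of all genes), and IKZF1 (-0.44) and BCKDK (0.63) passed it in the opposite direction (2.06% of all genes were higher). These comparisons called 0 genes each with edgeR and 17, 36 and 13 with DESeq2 in the order given. An unadjusted p under 0.05 was reached by 1394 (6.99%), 1278 (6.41%) and 847 genes (4.25%).

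Red cell lists differed between the settings in their medians. Globin genes had a median of 0.84 here, -0.64 in heterozygous DMSO cells, 1.56 in wild-type imiquimod cells and 1.2 in heterozygous imiquimod cells. The median here holds 3 globin genes without counts at a fold change of 0. In wild-type imiquimod cells these 3 were at 6.14, 5.52 and 3.72, so the globin medians of the settings are not directly comparable. Taken gene by gene, the globin fold change in DMSO minus that in imiquimod had a median of -0.08 in wild-type cells, with 6 of 14 positive. These 14 include the 3 genes without counts, at -6.14, -5.52 and -3.72, whose difference cannot be estimated. They are counted as negative, so this median and count show no lean to either side. For haem synthesis the medians in the same order were 0.45, -0.20, 0.29 and 0.18. alas2 had fold changes of 2.48, -1.07, 0.30 and 1.05, and epb41b of 1.13, -0.17, 0.49 and 0.32. Respiratory chain genes were at -0.13 here and -0.07 in heterozygous DMSO cells, but at 0.47 and 0.38 under imiquimod. The test of the difference between genotypes in DMSO called 0 genes with edgeR, 0 with voom and 52 with DESeq2, and 1514 (7.6%) had an unadjusted p under 0.05. That between DMSO and imiquimod in wild-type cells called 0, 0 and 54, with 1614 (8.1%) at an unadjusted p under 0.05. S32 and S33 belong to the heterozygous DMSO group of 5, and no library numbered 26 or above is in an imiquimod group, so the settings differ in library number as well.

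**Figure D5:**
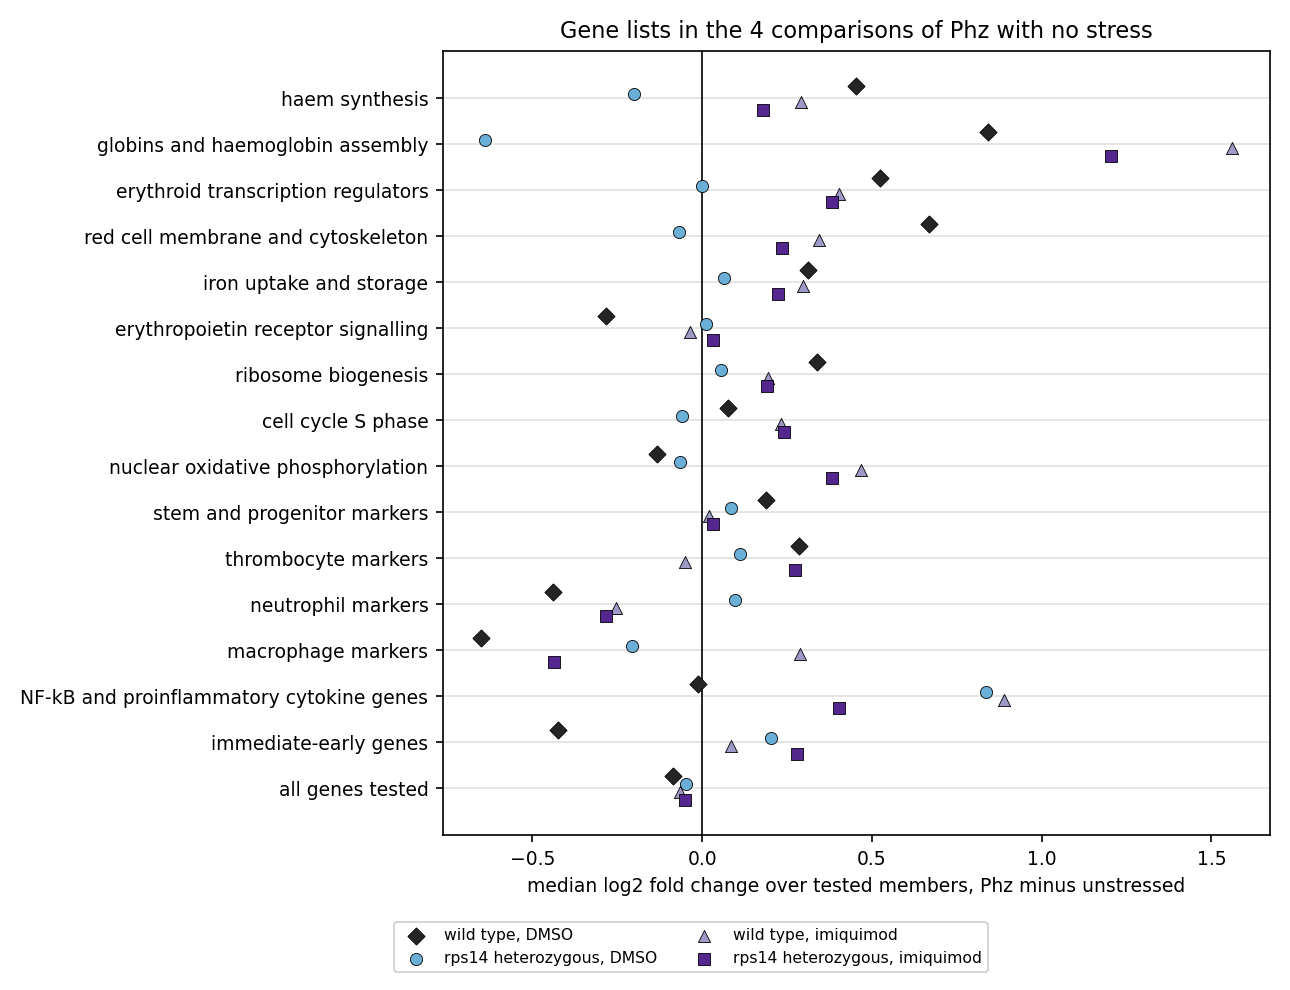
Median log2 fold change of each gene list, Phz minus unstressed, in wild-type DMSO, heterozygous DMSO, wild-type imiquimod and heterozygous imiquimod cells. Globins lie at 0.84, -0.64, 1.56 and 1.2 in that order, where the 0.84 holds 3 genes without counts at a fold change of 0. Neutrophil markers lie at -0.44, 0.10, -0.25 and -0.28, and the medians of all genes between -0.08 and -0.05.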

How the data were processed

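The values were whole-number read counts per gene, not normalized, as the authors deposited them for 30 Smart-seq2 libraries. The submitters' processing notes list HISAT2 2.1.0, featureCounts (Subread 2.0.0), Trimmomatic 0.39, SAMtools 1.9, DESeq2 and FastQC 0.11.9, with GRCz11 as the build; annotation release and strand use are not given in the sources used here. Reads without molecular identifiers are not independent molecules. Symbols matched 19528 of 20631 genes. All 30 libraries entered 1 edgeR 4.0.16 model (R 4.3.3) with a coefficient for each of 8 groups: TMM factors, filterByExpr (19930 genes), robust glmQLFit and glmQLFTest, Benjamini-Hochberg within a contrast. limma 3.58.1 (voom) and DESeq2 1.42.0 were alternatives, and the design was tested on simulated counts of 19085 genes (5 false calls). Named genes had a mean log2 CPM of at least 3, groups that do not overlap and the 15 smallest p per direction, plus up to 4 of smallest p per list and any red cell gene; a red cell gene of the lists is not reported here. The members and lists were chosen with earlier results of these data known, the HBE1 genes after symbols were seen, and the fits around S30 to S33 after the data were seen. No pair of libraries agreed within sampling noise (mean chi-square per gene 23.9 to 79.0).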

Additional observations from a re-analysis of the deposited data

How the results depend on the processing

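For the wild-type DMSO comparison the count of genes called was 0 in the fits on 6 libraries, voom, RLE size factors, other low-count filters, a term for S1 to S6 and both terms. It was 129 by DESeq2, 1 without S1 to S6 (ACSF3), and 0 to 1 leaving out single libraries (ACSF3 without S3, CCNYL1 without S13). With S26 as the lone Phz library, assumed to vary like the other groups, it was 91 (86 lower, 43 at 0 counts in S26), and 115 without S30 to S33 (107 lower, 51 at 0). The genotype difference gave 52 by DESeq2, 1 without S1 to S6, 78 without S30 and S31, 59 without S30 to S33, and 0 to 2 leaving out single libraries. The imiquimod difference gave 54 by DESeq2, 2 with a term for S1 to S6, 1 with both terms (DDIT4), 51 without S30 and S31, 74 without S30 to S33, and 0 to 1 leaving out single libraries. The red cell median of 0.45 was 0.15 without S30 and S31, 0.14 without S30 to S33, and 0.30 to 0.51 leaving out single libraries. The cause was not tested. Of 40 named genes in 20 alternatives, 773 values stayed on the same side of the threshold, 23 passed it by DESeq2 and 0 reversed. The others came from the fits resting on S26, where a lone library has no spread of its own. Named genes with groups apart were chosen for that separation in the same counts, so the lack of reversals and the DESeq2 count largely follow from the choice.

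Replicate numbers recur across groups. Same-numbered libraries had correlations of deviations of -0.362, -0.0623 and -0.195, and differently numbered ones ran from -0.272 to 0.313. Pairing by number was not seen, but 3 libraries per group cannot exclude it. A fit with the replicate block called 0 genes in this comparison on 6 libraries and on 8 groups, 0 for the genotype difference and 1 for the imiquimod difference.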
